A study of Homo sapiens with 13 samples.

Results

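The 6 genes described here are ERN2, FRG2FP, NTN3, VSIG4, DYRK1B and SLC29A2. They were chosen from 58581 genes in the RNA-seq table because their level in the library labelled uninduced lay far from that in the doxycycline libraries. Those levels chose the genes, so they are given below as a description, without a test. The library labelled uninduced is 1 culture of HEL cells, a human erythroleukemia line, stably carrying SRSF2 with the P95H substitution and not given doxycycline. The doxycycline libraries are 2 from cells with the same P95H construct and 2 from cells with wild-type (WT) SRSF2, all kept for 48 hours in 1 µg/ml doxycycline. The RNA was depleted of rRNA before sequencing. No library came from cells given doxycycline but lacking a construct, so exposure to doxycycline and expression of the construct cannot be told apart. Nor was a library of WT cells without doxycycline among the 5. With 1 uninduced library, anything peculiar to that culture cannot be told apart from the lack of doxycycline. In bulk RNA, fewer cells expressing a gene and less RNA per cell cannot be told apart either. Numbered libraries are named as biological replicates, with nothing on how the cultures were kept apart, so tests measure only the spread between these libraries.

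SRSF2 is an SR protein that binds exonic RNA and promotes the inclusion of exons, and P95H is a substitution recurrent in myelodysplastic syndromes that changes its RNA preference. The 6 genes share no pathway. ERN2 encodes IRE1-beta, an endoplasmic reticulum stress sensor best known from mucus-secreting epithelium, and FRG2FP is a pseudogene of the FRG2 family. NTN3 encodes a netrin, a secreted guidance ligand. VSIG4 encodes CRIg, a receptor for complement C3 fragments known from tissue macrophages. DYRK1B encodes a kinase linked to cell quiescence and differentiation, and SLC29A2 encodes ENT2, an equilibrative nucleoside transporter.

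The promoters are shown for VSIG4 and DYRK1B because these 2 of the 6 members matched an entry in RefSeq's promoter table. Each window runs from 250 bases before to 50 bases after the RefSeq gene start, 5′ to 3′ on the strand of the gene (GRCh38.p14, RefSeq). The Ensembl gene spans given below begin further upstream, inside the windows, at 66040125 for VSIG4 and 39834201 for DYRK1B. Positions are counted from the RefSeq start. Capitals mark matches to the motifs searched on both strands, which were the CCAAT box, the GC box GGGCGG and the TATA box TATAAA.
VSIG4 (chrX:66040031-66040330, minus strand): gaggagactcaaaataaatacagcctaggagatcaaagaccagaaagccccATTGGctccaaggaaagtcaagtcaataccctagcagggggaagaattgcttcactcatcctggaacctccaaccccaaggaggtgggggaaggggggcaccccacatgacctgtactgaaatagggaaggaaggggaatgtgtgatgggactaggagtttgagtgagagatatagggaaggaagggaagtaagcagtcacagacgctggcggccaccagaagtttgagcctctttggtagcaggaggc
DYRK1B (chr19:39834113-39834412, minus strand): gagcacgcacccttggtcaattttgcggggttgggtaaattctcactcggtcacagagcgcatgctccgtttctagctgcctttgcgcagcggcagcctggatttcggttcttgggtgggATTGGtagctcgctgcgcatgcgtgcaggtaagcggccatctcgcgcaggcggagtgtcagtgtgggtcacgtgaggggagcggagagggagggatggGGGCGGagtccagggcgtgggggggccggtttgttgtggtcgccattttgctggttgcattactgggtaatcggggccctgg
Both windows hold CCAAT on the antisense strand, at -199 bases from the start in VSIG4 and at -130 bases in DYRK1B. DYRK1B also holds GGGCGG at -32 bases. Neither holds TATAAA. Of 35116 promoter windows of the same length, 34.6% hold CCAAT, 45% GGGCGG and 11.5% TATAAA. The GC content is 52% for VSIG4 and 62% for DYRK1B, against a median of 58.7% over all windows.

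Library totals ran from 37414093 to 45005605 counts, and 3 counts corresponded to 0.0661 to 0.0800 CPM (read counts relative to library size, with edgeR's TMM scaling). The libraries differed by replicate number. The share of counts on protein genes of the mitochondrial genome was 1.38% in both libraries numbered 1, 4.30% to 4.50% in those numbered 2 and 4.14% without doxycycline. Values for the members are therefore also given by number. SRSF2 itself stood at 222 to 252 CPM in the doxycycline libraries and at 285 CPM without doxycycline, so its counts did not show the labelled lack of induction. Erythroid markers summed to 1609 to 2603 CPM in the doxycycline libraries and to 2304 CPM in the library labelled uninduced. Megakaryocytic markers summed to 736 to 879 and 1126 CPM, with PF4 at no more than 2 counts in any library. The largest part of the erythroid sum was TFRC, at 771 to 1506 and 1335 CPM. Most of the megakaryocytic sum was ITGA2B, at 503 to 592 and 808 CPM. Of the markers kept by the filter on low counts, 4 of 5 megakaryocytic and 2 of 11 erythroid markers stood above all doxycycline libraries and none below, against 25.9% above and 21.4% below over all genes. Their part in the members' values was not tested.

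ERN2 and FRG2FP were nearly absent from the library labelled uninduced. ERN2 (ENSG00000134398, chromosome 16, 23690326 to 23713500, minus strand, GRCh38) stood at 3.02 CPM in WT replicate 1, 2.35 in WT replicate 2, 2.99 in P95H replicate 1, 2.61 in P95H replicate 2, and the library labelled uninduced at 0.240. All 4 doxycycline libraries lay within 1.28-fold of each other and far above the fifth. The uninduced value rested on 9 counts, with an exact Poisson 95% interval of 0.110 to 0.455 CPM, against 95 to 137 counts in the others. Such intervals cover counting error only. The mean of the doxycycline libraries, 2.74 ± 0.319 CPM (SD, n = 4), was 11.4 times the uninduced value, and the fitted log2 difference, uninduced minus doxycycline, was -3.50 (SE 0.45).

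FRG2FP (ENSG00000232783, chromosome 3, 198110112 to 198111878, plus strand) showed a pattern of nearly the same shape. It stood at 2.05 CPM in WT replicate 1, 2.28 in WT replicate 2, 2.53 in P95H replicate 1, 2.84 in P95H replicate 2, and the library labelled uninduced at 0.213, where it had 8 counts (exact Poisson 95% interval 0.0921 to 0.420 CPM). The doxycycline mean of 2.43 ± 0.338 CPM (SD, n = 4) was 11.4 times the uninduced value, with a log2 difference of -3.48 (SE 0.44). FRG2 genes are near-identical copies, so reads may be split among them. FRG2, FRG2B, FRG2C and FRG2DP, its paralogs in the table, had at most 4 counts in any library.

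The 4 other members stood higher in the library labelled uninduced. NTN3 (ENSG00000162068, chromosome 16, 2471499 to 2474145, plus strand) stood at 1.68 CPM in WT replicate 1, 1.07 in WT replicate 2, 1.34 in P95H replicate 1, 1.53 in P95H replicate 2, and the library labelled uninduced at 5.04. The doxycycline libraries overlapped between genotypes, and the uninduced value lay 3.01 times above the highest of them. Against their mean of 1.40 ± 0.264 CPM (SD, n = 4) it was 3.59 times as high, a log2 difference of 1.84 (SE 0.32). VSIG4 (ENSG00000155659, chromosome X, 66021738 to 66040125, minus strand) stood at 1.98, 1.56, 2.41 and 2.68 CPM in WT replicates 1 and 2 and P95H replicates 1 and 2, and in the library labelled uninduced at 6.74 CPM. Both P95H libraries were above both WT libraries, and the uninduced value was 2.52 times the highest of the 4. The ratio to the doxycycline mean of 2.16 ± 0.490 CPM (SD, n = 4) was 3.13, and the log2 difference 1.66 (SE 0.26).

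DYRK1B (ENSG00000105204, chromosome 19, 39825350 to 39834201, minus strand) was the member that varied most among the doxycycline libraries, and it did so by replicate number. It stood at 4.54 CPM in WT replicate 1 and 6.28 in P95H replicate 1, against 2.63 in WT replicate 2 and 2.57 in P95H replicate 2. The libraries numbered 1 were 1.73 times as high as those numbered 2 in WT and 2.45 times in P95H, and no other member differed by more than 1.57-fold between the replicates of a genotype. The uninduced value of 8.74 CPM was above all 4 but only 1.39 times the highest. Its log2 difference was 1.13 (SE 0.47) against all 4, 0.698 against the libraries numbered 1 and 1.73 against those numbered 2. By its mitochondrial share the library labelled uninduced was closer to the libraries numbered 2, and the part of that difference in the DYRK1B value was not tested. For the other 5 members the same values lay close together by number: -3.63 and -3.38 for ERN2, -3.40 and -3.59 for FRG2FP, 1.73 and 1.93 for NTN3, 1.62 and 1.64 for VSIG4, and 1.04 and 0.968 for SLC29A2.

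SLC29A2 (ENSG00000174669, chromosome 11, 66362521 to 66372214, minus strand) was the member counted most deeply, with 1221 to 2544 counts. It stood at 31.6 CPM in WT replicate 1, 30.3 in WT replicate 2, 34.7 in P95H replicate 1, 38.04 in P95H replicate 2, and the library labelled uninduced at 67.8. The doxycycline libraries lay within 1.26-fold of each other, both P95H libraries were above both WT libraries, and the uninduced value was 1.78 times the highest. Its ratio to the doxycycline mean of 33.7 ± 3.47 CPM (SD, n = 4) was 2.02, a log2 difference of 1.02 (SE 0.12).

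**Figure D1:**
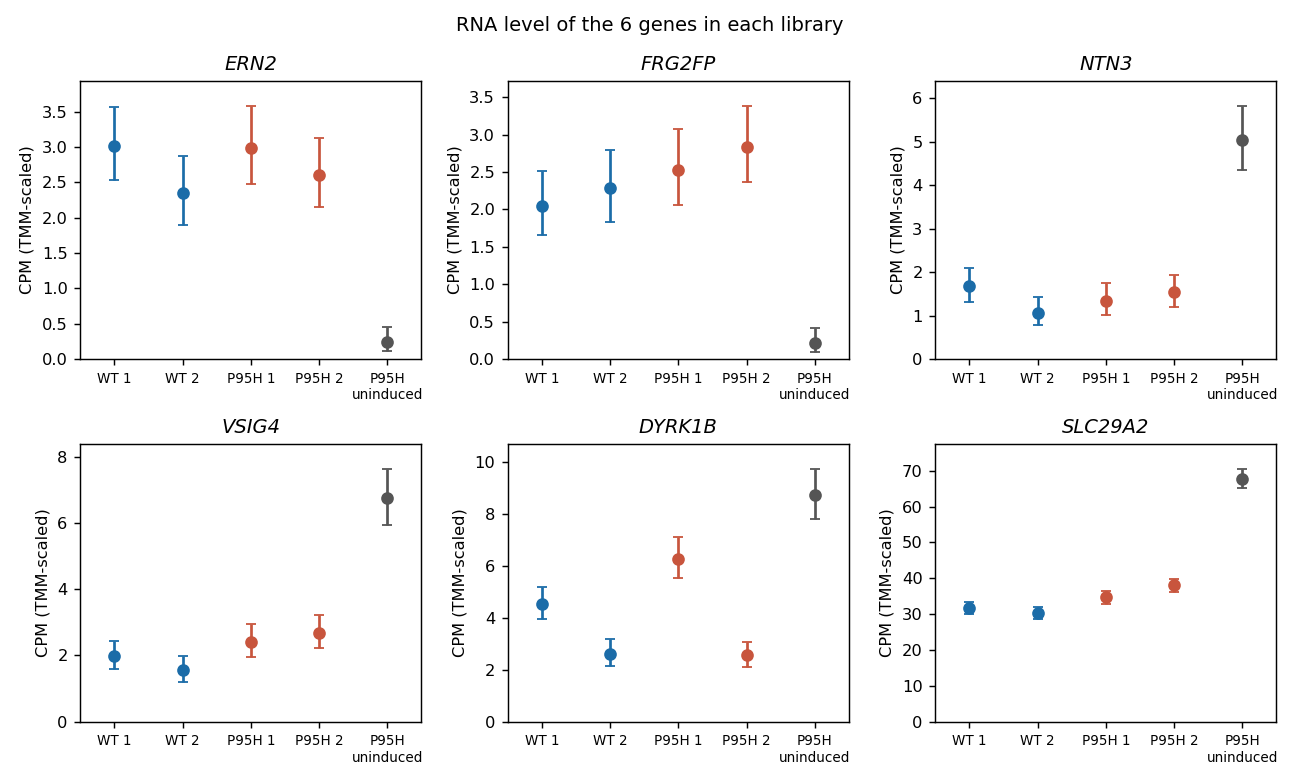
RNA level in CPM (vertical axis, TMM-scaled, from 0) of each of the 6 genes in the 5 RNA-seq libraries (horizontal axis, with replicate numbers); points are single libraries and bars exact Poisson 95% intervals, which cover counting error only. ERN2 and FRG2FP sit at 0.240 and 0.213 CPM in the library labelled uninduced, the other 4 are highest there, and DYRK1B also separates by replicate number.

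The members differed in how far they stood from the rest of the transcriptome. Of 23970 genes kept by the filter on low counts over the 5 libraries, 25.9% had an uninduced value above all 4 doxycycline libraries and 21.4% a value below all 4, so lying outside that range is in itself common. Lying outside it by at least 2-fold was not: 0.43% of the genes were that far above and 0.989% that far below. NTN3 and VSIG4 were among the former and ERN2 and FRG2FP among the latter, while DYRK1B and SLC29A2 were outside by less than 2-fold. Among 15459 genes with at least 50 counts in some library, NTN3 ranked 1 and VSIG4 ranked 5 by the distance above, SLC29A2 ranked 50 and DYRK1B 309. On the low side ERN2 ranked 2 and FRG2FP 3. The gene ranked 1 there was FNDC7, which stood at 1.06 to 1.72 CPM with doxycycline and at 3 counts in the library labelled uninduced. Next after FRG2FP came ABHD17AP3, at 1.70 to 2.30 CPM against 0.586 CPM. Over all 23970 genes kept, without that limit on counts, NTN3 ranked 11, VSIG4 35, SLC29A2 220 and DYRK1B 883 above. On the low side ERN2 then ranked 38 and FRG2FP 39. Any gene below the range with 0 uninduced counts was placed ahead of both, as its fold distance has no finite value. All these ranks describe how the members were chosen. In edgeR's quasi-likelihood fit of the library labelled uninduced against the doxycycline libraries, 0 of 23970 genes passed an adjusted p of 0.05 (0%), with 1213 below 0.05 before adjustment, while DESeq2 called 13. With 1 uninduced library the spread came from the doxycycline pairs alone.

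**Figure D2:**
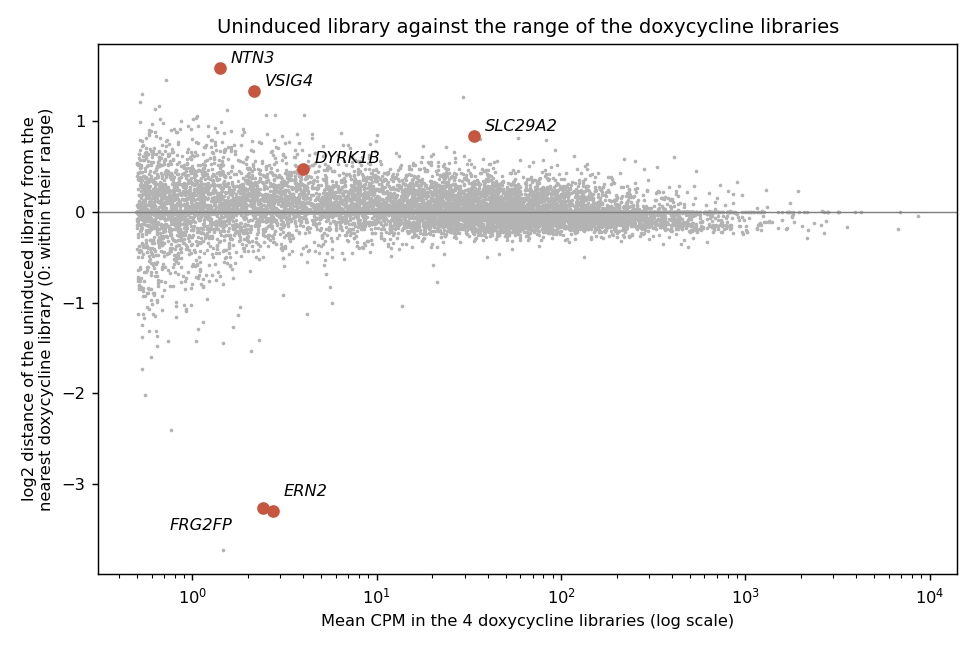
Each point is a gene with a mean of at least 0.5 CPM in the doxycycline libraries (horizontal axis, log scale); the vertical axis is the log2 distance of its uninduced CPM from the nearest doxycycline library, 0 where it lies within their range. ERN2 and FRG2FP lie 9.81-fold and 9.62-fold below, NTN3 and VSIG4 3.01-fold and 2.52-fold above, and DYRK1B and SLC29A2 lie closer to the other genes.

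Comparing P95H with WT, both given doxycycline, asks whether the mutation also moved these genes, and this contrast had no part in the choice of the members. All 6 passed the filter on low counts in these 4 libraries. None passed edgeR's quasi-likelihood test (adjusted p 0.9999 for each), and neither did any other of the 22007 genes tested (0%), with 227 below 0.05 before adjustment, none of them a member. By DESeq2 0 genes passed, and 100 were below 0.05 before adjustment. VSIG4 stood at 2.54 ± 0.194 CPM in P95H and 1.77 ± 0.299 in WT (SD, n = 2 each), a log2 difference of 0.53 with a 95% interval of -0.15 to 1.20. SLC29A2 stood at 36.4 ± 2.34 against 30.9 ± 0.948 CPM, a difference of 0.24 (95% interval -0.032 to 0.52), and FRG2FP at 2.68 ± 0.216 against 2.17 ± 0.162 CPM, a difference of 0.32 (95% interval -0.30 to 0.95). In these 3 genes both P95H libraries were above both WT libraries, as in 12.1% of all genes tested. ERN2 stood at 2.80 ± 0.266 against 2.69 ± 0.471 CPM and NTN3 at 1.44 ± 0.134 against 1.37 ± 0.432 CPM, with differences of 0.068 (95% interval -0.58 to 0.71) and 0.076 (-0.77 to 0.92). For DYRK1B the difference of 0.31 had the widest interval of the 6, -0.84 to 1.46. The intervals of ERN2, FRG2FP, NTN3 and SLC29A2 leave out a change of 2-fold in either direction, and those of VSIG4 and DYRK1B do not leave out a 2-fold higher level in P95H.

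Between libraries of the same number, P95H over WT was 1.21 and 1.72 for VSIG4, 1.099 and 1.26 for SLC29A2 and 1.23 and 1.24 for FRG2FP, so these 3 were higher in P95H in both pairs. The ratios were 0.989 and 1.11 for ERN2, 0.801 and 1.44 for NTN3 and 1.38 and 0.977 for DYRK1B, which changed direction between the pairs. The same 3 changed sign when 1 library was left out. ERN2 stood at -0.109 without WT replicate 2 and at -0.0365 without P95H replicate 1, NTN3 at -0.22 without WT replicate 2 and at -0.0331 without P95H replicate 2, and DYRK1B at -0.0414 without WT replicate 2 and at -0.478 without P95H replicate 1. The median log2 difference was 0.28 over the 6 members and 0.0020 over all genes tested.

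**Figure D3:**
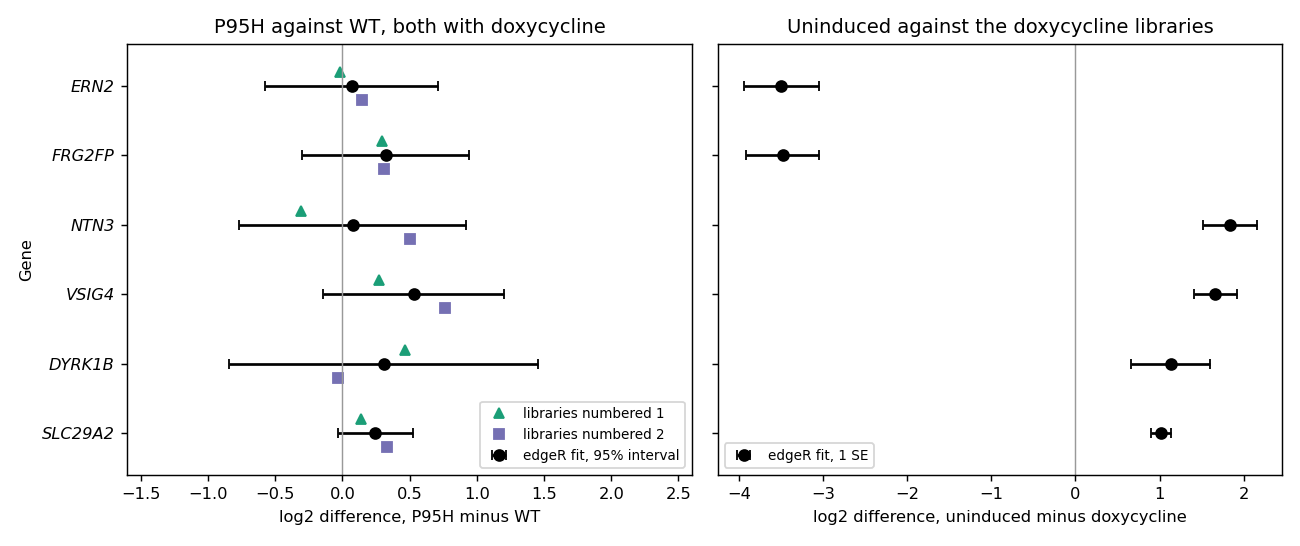
Log2 differences (horizontal axes) of the 6 genes (vertical axis); circles are edgeR fits. Left, P95H minus WT with 95% intervals, and triangles and squares for the pairs of libraries numbered 1 and 2: every interval includes 0. Right, uninduced minus doxycycline, the contrast that chose the genes, with bars of 1 SE, from -3.50 for ERN2 to 1.84 for NTN3.

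The genes around each member show whether a difference covered a wider stretch of the chromosome. VSIG4 shared its pattern with the nearest gene on its downstream side, the antisense transcript RP6-159A1.4 (chromosome X, 66015461 to 66020422, plus strand), whose annotated span also holds MIR223. RP6-159A1.4 stood at 34.0 CPM in WT replicate 1, 18.6 in WT replicate 2, 31.5 in P95H replicate 1, 33.4 in P95H replicate 2, and the library labelled uninduced at 81.6, 2.78 times the doxycycline mean. As for VSIG4, its lowest value was in WT replicate 2. MIR223, annotated as the microRNA precursor itself, had 0 counts in every library. The nearest gene upstream of VSIG4, the pseudogene RP11-30M20.1, had at most 2 counts.

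NTN3 had a like neighbour, the antisense transcript RP11-715J22.2 that lies 3286 bases before it, at 0.948 to 1.67 CPM with doxycycline and 2.64 CPM in the library labelled uninduced, 2.06 times the mean. TBC1D24, the nearest gene on the other side, begins 973 bases after NTN3 and stood at 35.5 CPM against 25.2 to 32.5 CPM, 1.26 times the mean. Also within 40 kb of NTN3, CCNF stood at 110 against 87.0 to 105 CPM and C16orf59 at 12.5 against 8.61 to 9.92 CPM. RP11-715J22.6 stood at 3.52 against 2.45 to 3.06 CPM, while RP11-715J22.3 and RP11-715J22.4 were within the doxycycline range. Over all genes kept, 25.9% stood above all doxycycline libraries. In SLC29A2 the antisense transcript RP11-867G23.8 overlaps the gene by 2284 bases and stood at 3.39 CPM against 1.43 to 2.81 CPM, 1.59 times the mean, and the nearest gene beyond it on that side, the glycosyltransferase gene B4GAT1, at 2.83 against 1.98 to 2.45 CPM. The sources used here do not say whether counting used strand, so reads in the overlap cannot be assigned to a strand. BRD9P1, the nearest gene on the other side of SLC29A2, had 0 counts.

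For ERN2 the low value did not extend to the overlapping gene on the other strand. PLK1, a mitotic kinase gene on the opposite strand that overlaps its end by 42 bases, stood at 82.3 to 101.4 CPM with doxycycline and 101.5 CPM in the library labelled uninduced. CTD-2196E14.8, an unclassified transcript of 650 bases on the same strand inside ERN2, stood at 0.297 to 0.428 CPM with doxycycline and at 0.0533 CPM, 2 counts, in the library labelled uninduced. The nearest gene downstream of ERN2 on its own strand, CTD-2196E14.5, had at most 7 counts. FRG2FP had ANKRD18DP as its nearest gene to the left, at 2.67 to 3.79 CPM with doxycycline and 2.29 CPM without, 0.742 times the mean, and to the right the pseudogene TUBB8P8 with at most 3 counts. DYRK1B begins 257 bases after the end of FBL, which encodes the nucleolar methyltransferase fibrillarin and lies on the same strand. FBL stood at 299 to 381 CPM with doxycycline and at 299.9 CPM without, 0.890 times the mean, and LLNLR-268E12.1 on the other side at 0.520 to 0.706 against 0.533 CPM.

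**Figure D4:**
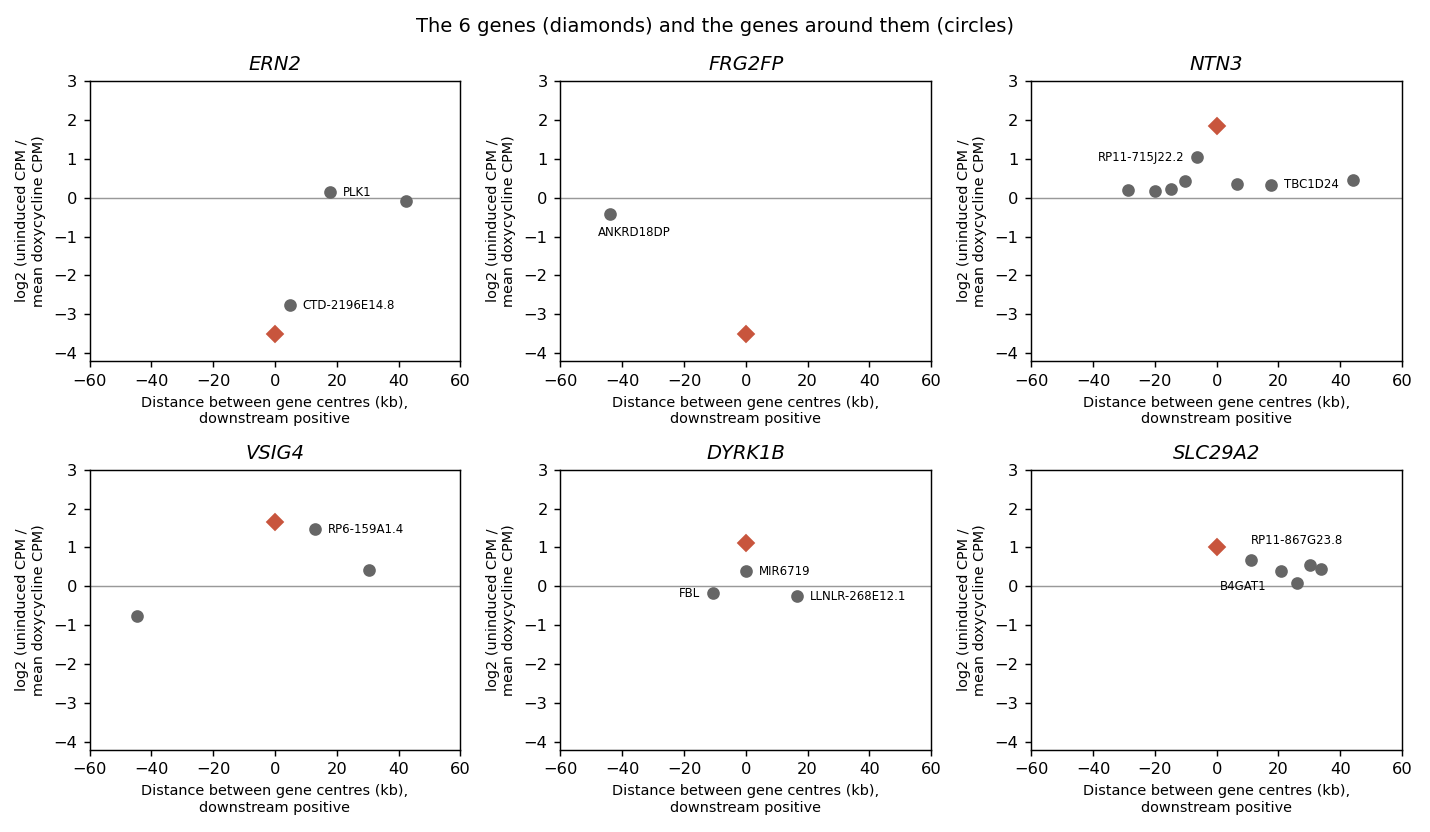
The log2 ratio of uninduced CPM to the mean doxycycline CPM (vertical axis) for each of the 6 genes (diamonds, at 0) and the genes within 40 kb of it that had at least 10 counts in some library (circles), by the distance between gene centres along the strand of the member (horizontal axis, kb); names mark the nearest and overlapping genes. RP6-159A1.4 beside VSIG4 stood 2.78 times above its doxycycline mean and PLK1 beside ERN2 near 1, at 1.104 times.

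Genes with the most similar pattern were ranked by the root mean square difference of log2 CPM, each gene centred on its own mean over the 5 libraries. This describes 5 points that share their libraries and gives no shared function. The uninduced value that chose the members is 1 of the 5, so closeness between members partly follows from that choice. Nearest to ERN2 were FNDC7 (0.251), the histone gene H2AFJ (0.308) and RP11-305O6.3 (0.34), and nearest to FRG2FP were H2AFJ (0.261), FNDC7 (0.371) and CPNE7 (0.398). ERN2 and FRG2FP were closer to each other, at 0.222, than to any of these. H2AFJ stood at 0.198 to 0.383 CPM with doxycycline and was at 0 in the library labelled uninduced. RP11-305O6.3 and CPNE7 stood at no more than 0.551 CPM in any library. Nearest to NTN3 were RN7SKP106 (0.132), RP11-12D16.2 (0.165) and ABHD1 (0.188), the last at 1.29 to 1.52 CPM against 4.48 CPM. RN7SKP106 stood at only 0.124 to 0.220 CPM with doxycycline and RP11-12D16.2 at 0.0496 to 0.113 CPM, so their patterns rest on few counts. Nearest to VSIG4 were RP11-44M6.7 (0.131), AC068491.3 (0.141) and CTD-2227E11.1 (0.146), none above 0.676 CPM in a doxycycline library. DYRK1B was closest to the pseudogene RP11-259G18.2 (0.0265), RNU7-26P (0.0592) and RNU1-16P (0.111), all below 0.6 CPM in each library. SLC29A2 was closest to HOTTIP (0.0372), a noncoding RNA of the HOXA cluster, to RP11-661A12.8 (0.0414) and to DALRD3 (0.062). DALRD3 stood at 2.63 to 3.33 CPM against 5.94 CPM, while HOTTIP and RP11-661A12.8 were at no more than 0.743 CPM with doxycycline. None of these genes that were tested passed edgeR's test of P95H against WT.

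Genes related to the members by family, name or function were taken from 6 lists, of which 67 of 75 symbols were in the table. No gene of any list passed edgeR's test of P95H against WT, the same 0% as over all genes, and none stood outside the doxycycline range by 2-fold in the library labelled uninduced. Of the endoplasmic reticulum stress genes around ERN2, 13 were tested, with a median log2 difference between P95H and WT of 0.017. Against the shares of 25.9% above and 21.4% below all 4 doxycycline libraries over all genes, this list had 6 above and 2 below of 14 kept, and the DYRK and HIPK list 1 and 4 of 11. The complement list had 4 and 1 of 10, the netrin list 2 and 0 of 7, the nucleoside list 2 and 1 of 9 and the FRG list 0 and 2 of 2. ERN1, the broadly expressed paralog of ERN2, named for that relation, stood at 23.4 to 28.4 CPM with doxycycline and 28.1 CPM without. HSPA5, the chaperone BiP, stood at 555 to 1021 and 1017 CPM, ATF4, a transcription factor of the stress response, at 313 to 379.7 and 293.6 CPM, and ATF6, another stress sensor, at 136 to 181 and 175 CPM. In the same list, and picked after its values were seen, HERPUD1, an ER-associated degradation factor, stood at 30.1 to 33.8 CPM against 48.7 CPM.

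Of netrins and their receptors, 5 were tested, with a median of 0.067 between P95H and WT. NTN1 stood at 1.96 to 2.52 CPM with doxycycline and 2.19 CPM without, and the receptor NEO1 at 114.8 to 126 and 148 CPM. UNC5B, another receptor, stood at 4.53 to 13.3 and 6.61 CPM. Of the complement genes around VSIG4, 9 were tested, with a median of 0.047. CD46, a complement regulator, stood at 159 to 185 CPM with doxycycline and 225 CPM without, and CD55, another regulator, at 83.0 to 122 and 102 CPM. Of the DYRK and HIPK kinases and partners of DYRK1B, 11 were tested, with a median of -0.024. DYRK1A, the closest paralog, stood at 260 to 294 CPM with doxycycline and 265.7 CPM without, HIPK1 at 364.5 to 421 and 363.7 CPM, and DCAF7, a scaffold of DYRK1 kinases, at 297 to 359.8 and 306 CPM. Of nucleoside transporters and salvage genes, 9 were tested, with a median of 0.027. SLC29A1, which encodes the transporter ENT1, stood at 117.7 to 152 CPM with doxycycline and 195.5 CPM in the library labelled uninduced, above all 4. The other equilibrative transporters of the list were within the doxycycline range, SLC29A3 at 2.99 to 4.39 and 4.37 CPM and SLC29A4 at 0.248 to 0.586 and 0.3998 CPM. TK1, thymidine kinase, stood at 63.1 to 78.1 and 69.0 CPM, and DCK, deoxycytidine kinase, at 42.7 to 53.2 and 44.6 CPM. In the FRG list FRG1 and FRG1B were tested, with a median of 0.019, and stood at 54.1 to 57.3 and 20.2 to 23.3 CPM with doxycycline and at 47.8 and 19.0 CPM without.

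Since VSIG4 is known from macrophages and ERN2 from gut epithelium, markers of those cells were measured. The 12 macrophage markers summed to 10.2 to 14.9 CPM with doxycycline and to 11.2 CPM in the library labelled uninduced, with MARCO, C1QB and TIMD4 at 0 in all 5 libraries and CD14, CD68 and CD163 below 0.2 CPM. MRC1, a macrophage receptor, was below the doxycycline range, at 1.41 to 2.23 CPM against 0.960 CPM, and the other 2 markers kept were within it. LYZ, at 6.84 to 11.4 CPM with doxycycline and 8.40 CPM without, made up most of the sum. The 10 gut epithelial markers summed to 31.9 to 41.1 and 32.0 CPM, with EPCAM and TFF3 at 0 throughout. Nearly all of that sum was the keratin genes KRT18, at 26.0 to 32.9 and 26.1 CPM, and KRT8, at 5.10 to 7.93 and 5.28 CPM. SPINK4, a goblet cell gene, was low beside ERN2, at 0.223 to 0.431 CPM with doxycycline and 0.0533 CPM, 2 counts, without. CLDN7, an epithelial tight junction gene, was on the other side of the range, at 0.198 to 0.355 CPM with doxycycline and 0.480 CPM without. Of the 4 gut markers kept, these were the 1 below and the 1 above, and both were picked after their values were seen.

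HITS-CLIP recovers and sequences the RNA crosslinked to a protein, here Flag-tagged SRSF2. It was done on 4 WT and 4 P95H samples, each 36 hours into doxycycline. The authors' deposited table lists 8100 distinct windows that differed between P95H and WT, and 0 of them were assigned to or lay inside any of the 6 genes. Of the genes tested in RNA-seq, 9.69% had at least 1 window. The share was 4.45% among 4202 genes with a mean of 1 to 5 CPM, the range of 5 members, and 10.5% among 2899 genes at 20 to 50 CPM, the range of SLC29A2. Every listed window has an FDR no higher than 0.05 and differs 2-fold or more, so the table does not say whether SRSF2 bound these transcripts equally in both genotypes or not detectably.

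Of the related genes, 7 had windows in the authors' deposited table, 9 windows in all, of which 8 were lower in P95H, against 77.7% of all windows. The 9 include 2 overlapping windows in CDKN1B and 2 in SLC29A1, with the same values within each gene, so they are not 9 separate sites. SLC29A1 had 2 overlapping windows (chromosome 6, 44230195 to 44230215 and 44230200 to 44230220, plus strand) at 1.79 ± 1.65 CPM in WT and 0.25 ± 0.17 in P95H (the authors' means and standard errors), a log2 change of -3.30 in the authors' deposited table. The window in DYRK4 (chromosome 12, 4591596 to 4591616, in a retained-intron transcript) stood at 2.39 ± 0.84 CPM in WT and 0.53 ± 0.53 CPM in P95H, again means and standard errors of the authors' deposited table. The window higher in P95H in the authors' deposited table was in DCAF7 (chromosome 17, 63592460 to 63592480, plus strand), at 0.06 ± 0.03 CPM in WT and 1.43 ± 0.51 CPM in P95H, a log2 change of 4.42 with an adjusted p of 1.9e-07.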

How the data were processed

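For RNA-seq the authors deposited unnormalized counts, 1 row per Ensembl gene, for 5 libraries. GRCh38.p3, edgeR, TopHat2 2.0.14 and STAR 2.5.3a appear without a role in the submitters' processing notes. Which program counted, and whether by strand, the sources used here do not say. Per the file headers, the HITS-CLIP table holds a log2 change of P95H over WT, an adjusted p-value (FDR) and mean CPM with standard errors per genotype, all computed and deposited by the authors. Of its 8324 rows, 224 repeated a position and were counted once.

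Tests were run with edgeR 4.0.16 and DESeq2 1.42.0 under R 4.3.3: filterByExpr, TMM scaling, the quasi-likelihood test (both directions), Benjamini-Hochberg adjustment over all genes, threshold 0.05. P95H against WT used 4 libraries, and the fit with the library labelled uninduced used 5. CPM are TMM-scaled over the 5 libraries, with a prior count of 2 on the log2 scale. Standard errors were the fitted difference divided by the root of the F statistic. The fits were also run on simulated counts with the same spread for every gene and no difference by replicate number. The real libraries did differ by number, so that run checked only the working of the code. Tables and figures used Python 3.11.15 with pandas 2.3.3 and matplotlib 3.10.9. Members and gene lists were chosen with earlier results of these data known. The genes named were the members, the 3 most alike to each, the nearest annotated genes, and up to 3 of the highest in each list (1 gene of these is not reported here); others were named after their values were seen. Neighbours were taken within 40 kb. Alternatives were other scalings, filters, DESeq2, a replicate block, other sets of libraries and leaving out each replicate.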

Additional observations from a re-analysis of the deposited data

How the results depend on the processing

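For P95H against WT, 60 values of the members under the alternatives kept their sign, and none passed edgeR's or DESeq2's threshold (lowest adjusted p 0.382, SLC29A2, replicate block). The 6 values that changed sign came from leaving out 1 library, with ranges of -0.109 to 0.258 for ERN2, -0.22 to 0.44 for NTN3 and -0.478 to 0.807 for DYRK1B. For uninduced against doxycycline, no value of a member changed direction under the alternatives run. Of these values, 75 moved by less than the standard error of the main fitted difference and 3 by more. VSIG4 stood at 1.41 against P95H alone and at 1.92 against WT alone, and DYRK1B at 1.73 against the libraries numbered 2. The number of genes called moved more. In P95H against WT it went from 0 to 15 without a filter on low counts, and to 84 with the replicate number as a block (41 higher, 43 lower, no member, but 1 gene of the netrin list and 1 megakaryocytic marker). In uninduced against doxycycline it went from 0 to 13 with DESeq2, to 208 without a filter, to 0 to 3 leaving out 1 library (3 without WT replicate 1), and to 3544 and 881 against only the libraries numbered 1 or 2, an alternative chosen after seeing the data; the cause was not tested. Each fit against only the libraries of 1 number took 1 WT and 1 P95H library as 1 group, and the spread came from that pair alone. The numbers of genes called in those 2 fits therefore do not rest on replicates of the same genotype. Replicate deviations of WT and P95H correlated at r = 0.535 across 22007 genes, which are not independent, over 2 pairs that share only a number in the labels. The count of HITS-CLIP windows in members was 0, and stricter limits or counting repeated rows could not have changed it. With 9 and 8 counts, the uninduced levels of ERN2 and FRG2FP are known least precisely.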
